A study of Mus musculus with 24 samples.

Results

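The comparison set 3 libraries of βTC3 cells in which miR-137 had been switched on for 7 d against 3 libraries of the same cells in which it had not. βTC3 is a beta cell line grown from an insulinoma of a transgenic mouse in which an insulin promoter drives the SV40 large T antigen. All 6 libraries came from cells that carried the plasmid PB-31 miR-137, and miR-137 was induced with doxycycline (DOX). The 7 d DOX cultures received DOX at 2 µg/ml for 7 d, and the no DOX cultures were kept for the same time without it. The 6 libraries were chosen from 24 by their labels, with earlier results of these data known. The other 18 comprise the same line after DOX was withdrawn for another 7 d, a control line whose PB-31 label names no miRNA (7 d DOX and no DOX), and a line with PB-31 and the miR-23b cluster (no DOX, 7 d DOX and withdrawn), each with 3 libraries per condition. Cells were plated in triplicate, so the 3 libraries of a group may be technical replicates. The p-values rest on the spread between such libraries within groups, estimated over all 24 libraries. Nothing in the labels says whether a line is a single clone or a pool. Dates, plates and runs are not labelled either, so an effect of DOX cannot be told apart from any batch that follows the DOX groups.

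A microRNA guides Argonaute proteins to messenger RNAs, mostly through pairing of its seed, the bases near its 5′ end, with sites in 3′ untranslated regions (3′ UTRs). Pairing represses translation and speeds decay of the message, usually by a modest amount for any single gene. miR-137 is abundant in neurons, where chromatin, signalling and synaptic genes have been reported as its targets, and it has been studied as a restraint on proliferation in several tumours. Beta cells share much of the regulated secretion machinery of neurons and release insulin from dense-core granules.

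The miRNA sequences are printed because the seed defines which messages can be paired. They are the RefSeq entries on GRCm38.p6, chromosome 3, plus strand. Capitals mark miR-137-3p within the hairpin (chr3:118433857-118433929) and the seed, bases 2 to 8, within the mature forms miR-137-3p (chr3:118433901-118433923) and miR-137-5p (chr3:118433865-118433887).
Mir137 hairpin: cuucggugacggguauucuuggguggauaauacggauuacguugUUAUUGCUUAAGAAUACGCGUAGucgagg
miR-137-3p: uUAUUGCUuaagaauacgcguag
miR-137-5p: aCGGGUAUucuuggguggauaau

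The seed of miR-137-3p, UAUUGCU, pairs with AGCAATA in a message written as DNA. Genes were classed by the best match on the sense strand of their longest annotated 3′ UTR (GENCODE M21, GRCm38). An 8mer is AGCAATAA, a 7mer-m8 is AGCAATA not followed by A, and a 7mer-A1 is GCAATAA not preceded by A. Each 8mer contains both 7mers and was counted as an 8mer alone. Of 12980 tested genes with a 3′ UTR, 592 (4.56%) had an 8mer, 785 (6.05%) at best a 7mer-m8, 657 (5.06%) at best a 7mer-A1, and 10946 (84.3%) none. The sites of 8 genes that were lower with 7 d DOX and lower than in the control line are shown with up to 11 bases on either side, in capitals for the 8mer.
Slc1a2, chromosome 2: tcatgcaacaaAGCAATAAacccaagtagg
Ppargc1a first site, chromosome 5: agtagatagaaAGCAATAAataactatgaa
Ppargc1a second site, chromosome 5: agactattaagAGCAATAAattatttttaa
Hhip, chromosome 8: gaaaagtagatAGCAATAActggtagatga
Pgm2, chromosome 5: ttgattgttaaAGCAATAAtattttagggc
Lpp, chromosome 16: ttatactatagAGCAATAAcatcctccatg
Robo2, chromosome 16: taattaaagacAGCAATAAaggctgcaagt
Baz1a, chromosome 12: tacgtgtataaAGCAATAAcagctggttga
Tnfrsf23, chromosome 7: cttgatctgcaAGCAATAAaaggagactgt

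Of 11 genes with an 8mer that met all the naming filters and were higher in both comparisons, 4 are named. The sites of the pair with the largest differences from the control line are given for contrast.
Dclk1, chromosome 3: ctggtaaaaagAGCAATAAattaccaggtg
Cbarp, chromosome 10: tttcctctctgAGCAATAAccgaccgcgcc

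A match of these letters is a description of the sequence. It does not show that the site was bound.

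Induction was read first at the locus. Gm26871 (ENSMUSG00000097311, GRCm38 chromosome 3, 118430324 to 118530022, plus strand), the annotated transcript that holds Mir137, stood at 126.3, 121.0 and 120.9 unadjusted CPM (counts scaled to the library's total in genes) in the 7 d DOX libraries, against 4.58, 3.90 and 4.58 CPM in the no DOX libraries. The groups lay far apart (log2 fold change 4.81, SE 0.08). After withdrawal it stood at 2.58 ± 0.784 CPM (SD, n = 3). In the control line it was 3.59 ± 0.555 CPM with 7 d DOX and 3.20 ± 0.230 CPM with no DOX. In the miR-23b line it was also higher with DOX, at 5.38 ± 0.690 CPM with 7 d DOX and 2.17 ± 0.333 CPM with no DOX (log2 fold change 1.28, SE 0.16, edgeR adjusted p 8.27e-09). The neighbouring protein-coding genes differed little in the miR-137 line. Snx7, a sorting nexin gene, averaged 17.9 CPM with 7 d DOX and 17.6 CPM with no DOX, and Dpyd, which encodes dihydropyrimidine dehydrogenase, averaged 2.62 and 2.65 CPM in that order. Mir137 itself (ENSMUSG00000065569) had 0 counts in every library. Reads from the inserted copy and from the cell's own locus cannot be told apart, and polyA libraries do not measure the mature miRNA, so its level was not measured.

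**Figure D1:**
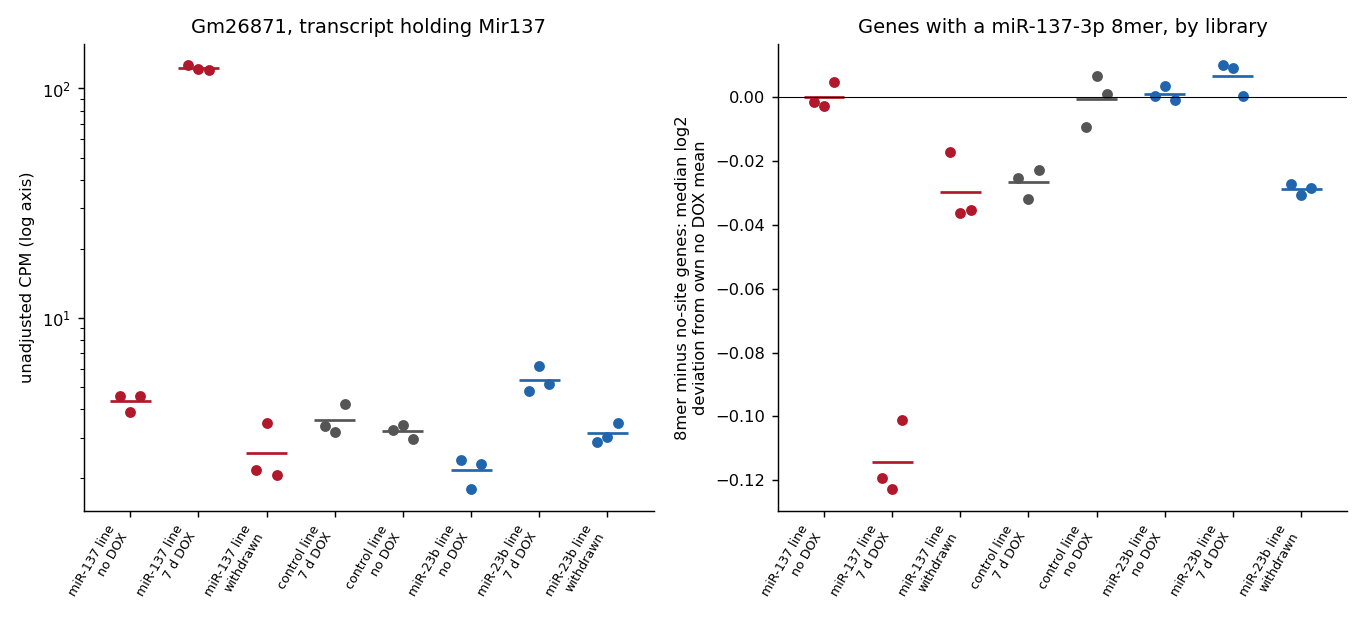
Left, Gm26871 in unadjusted CPM on a log axis for each library (points) with group means (lines); the 3 libraries of the miR-137 line with 7 d DOX lie between 120.9 and 126.3 and all others below 10. Right, for each library, the median log2 deviation from the mean of its own line with no DOX over 592 genes with an 8mer, minus that over 10946 genes with no site; the miR-137 line with 7 d DOX lies at -0.123 to -0.101.

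The libraries held the defining messages of beta cells in both conditions. Ins2, an insulin gene, averaged 8693 unadjusted CPM with 7 d DOX and 7282 CPM with no DOX, and the 8 beta cell markers summed to between 14290 and 14750 CPM in the 7 d DOX libraries, against 12900 to 13960 CPM in the no DOX libraries. The glucose transporter gene Slc2a2 was low, at 7.89 and 10.1 CPM in that order. Markers of other cell types were near 0. The 8 fibroblast markers summed to 2.55 to 3.21 CPM with 7 d DOX and 2.38 to 3.11 CPM with no DOX, the 8 leukocyte markers to 2.72 to 2.97 and 1.91 to 2.96 CPM, the 7 endothelial markers to 0.742 to 1.39 and 0.987 to 1.43 CPM, and the 9 exocrine acinar and duct markers to 3.34 to 3.94 and 2.48 to 2.96 CPM, each in the same order. Lum, Cd3e, Cldn5, Cpa1, Prss2, Ptf1a, Krt19 and Sox9 were at 0 in all 6 libraries. Col1a1, Cd68 and Muc1 held the largest shares of the fibroblast, leukocyte and exocrine sums, at 2.49, 2.48 and 2.64 CPM with 7 d DOX and 2.47, 2.24 and 2.24 CPM with no DOX. The elastase gene Cela1 averaged 0.692 CPM with 7 d DOX and 0.339 CPM with no DOX and passed the test, a call that was lost with DESeq2, in a fit of only the groups compared, and without no DOX replicate 1 or 2 or 7 d DOX replicate 2 or 3; its part in any result was not tested. Libraries held 17470614 to 22301042 reads counted in genes. Levels below are CPM scaled by TMM factors unless called unadjusted. In bulk RNA, fewer cells of a kind and less RNA per cell cannot be told apart.

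Of 14866 genes tested, 6372 (42.9%) passed edgeR's quasi-likelihood test at a Benjamini-Hochberg adjusted p below 0.05 in 7 d DOX against no DOX. Of these, 3126 were higher (21.0% of genes tested) and 3246 lower (21.8%). Most changes were small: among called genes the median absolute log2 fold change was 0.28. Changes of 2-fold or more were called in 232 genes higher (1.56%) and 224 lower (1.51%). The 3 libraries of each group did not overlap in 7679 genes (51.7%). A call thus marks a difference between a pair of tight sets of libraries, whose common coefficient of biological variation was 3.00%, and fold changes are given throughout so that small shifts can be told from large ones.

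A large share of these changes was also present in the control line, which received DOX too. There 5624 genes passed the same test (37.8%), 2753 higher (18.5%) and 2871 lower (19.3%). The 2 lists shared 3622 genes called in the same direction, which is 56.8% of the genes called in the miR-137 line and 64.4% of those called in the control line, and 102 genes called in opposite directions. Across all 14866 genes the log2 fold changes of the lines had a Pearson correlation of 0.64, given as a description, since genes are not independent replicates.

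The test of what differed between the lines was the difference of the responses, the log2 fold change in the miR-137 line minus that in the control line. It passed in 1588 genes (10.7%), of which 877 (5.90%) had a higher response in the miR-137 line and 711 (4.78%) a lower one. The split depends on the filter: without a filter on low counts 66.5% of the called genes were higher, against 55.2% here. The control libraries with 7 d DOX detected 20898 to 21066 genes with at least 1 count, against 19606 to 20091 in the 7 d DOX libraries of the miR-137 line, and the part of this in the differences was not tested. Against the response of the miR-23b line the difference passed in 5240 genes (35.2%), 52.2% of them higher by the count test. On the authors' TPM scale only 26.1% of called genes were higher in that second difference, so its direction over all genes depends on the scale.

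Genes with a miR-137-3p site were lower as a class with 7 d DOX. The median log2 fold change was -0.105 over the 592 genes with an 8mer, -0.066 over those with a 7mer-m8 and -0.068 over those with a 7mer-A1, against 0.010 over genes with no site. In the control line the same classes had medians of -0.022, -0.025, -0.010 and 0.006. In the miR-23b line they had 0.010, 0.023, 0.041 and 0.002. Of the 8mer genes, 260 (43.9%) were called lower and 68 (11.5%) higher in the miR-137 line, while genes with no site were called lower in 21.3% and higher in 23.4%. In the control line 22.5% of the 8mer genes and 20.7% of genes with no site were called lower. The 26 genes with more than 1 8mer had a median of -0.279, against -0.102 for the 566 with 1 site, and in the control line -0.158 and -0.018.

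The difference from the control line gave the same order. Its median was -0.091 over 8mer genes, -0.052 and -0.053 over the 7mer classes and 0.007 over genes with no site. The response was called lower than in the control line for 122 (20.6%) of the 8mer genes, 12.6% of the 7mer-m8 genes, 10.7% of the 7mer-A1 genes and 3.59% of genes with no site. It was called higher for 2.53%, 4.20%, 4.41% and 7.01% of these classes. These shares are descriptions, since genes are not replicates.

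The shift was present in each library. Taken against the no DOX mean of the line, 8mer genes minus genes with no site had a median of -0.119, -0.123 and -0.101 in the 3 libraries with 7 d DOX, and of -0.002, -0.003 and 0.005 in the 3 with no DOX. After withdrawal the values were -0.017, -0.036 and -0.035. The control line with 7 d DOX gave -0.025, -0.032 and -0.023, and the miR-23b line gave 0.0099, 0.0091 and 0.0002 with 7 d DOX and -0.027, -0.031 and -0.029 after withdrawal. The plot of these values by library shows the 7 d DOX libraries of the miR-137 line apart from all others, with the withdrawn libraries of both miRNA lines beside the control libraries that received DOX.

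**Figure D2:**
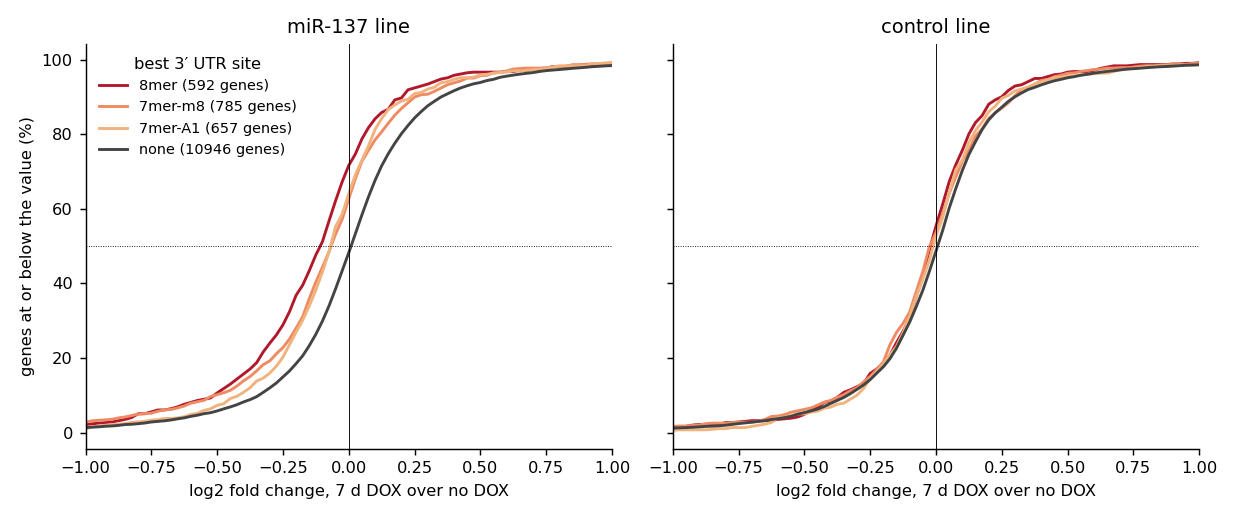
Cumulative share of genes (percent) at or below each log2 fold change, 7 d DOX over no DOX, for genes classed by their best miR-137-3p site in the 3′ UTR; left the miR-137 line, right the control line. In the miR-137 line the 8mer curve lies left of the no site curve, with medians of -0.105 and 0.010, and in the control line the curves lie close together, with medians of -0.022 and 0.006.

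Genes with sites had longer 3′ UTRs, with a median of 2473 bases for 8mer genes and 1038 bases for genes with no site. Within the shortest, middle and longest tertile of 3′ UTR length, 8mer genes had medians of -0.149, -0.127 and -0.100 in the miR-137 line, against 0.022, 0.007 and -0.007 for genes with no site. In the control line the 8mer medians in these tertiles were 0.001, -0.033 and -0.018. The 48 genes with a 7mer-m8 in the shortest tertile were an exception, with a median of 0.014. Split by mean expression, 8mer medians in the miR-137 line were -0.202, -0.099 and -0.087 from the lowest to the highest tertile. Genes with no site had 0.012, 0.005 and 0.012 there, so the shift was also present among abundant messages. In the control line the 8mer medians in these tertiles were -0.067, -0.023 and -0.012.

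Among single genes with an 8mer, 100 met all the filters for a lower response in both comparisons and 11 those for a higher one. Over all 14866 genes tested, 1071 were called in the same direction in both comparisons, 608 of them higher and the rest lower. The count over all genes did not apply the level and overlap filters, so it is not strictly comparable. The 8 genes with an 8mer and the largest negative difference from the control line are described here. Their direction in both comparisons was part of how they were chosen. Slc1a2, a glutamate transporter gene, stood at 5.14, 7.35 and 7.14 CPM with 7 d DOX, against 17.4, 16.4 and 16.8 CPM with no DOX (log2 fold change -1.36, SE 0.11, adjusted p 1.21e-13). In the control line it stood at 9.87, 12.2 and 10.7 CPM with 7 d DOX and 16.8, 17.5 and 16.8 CPM with no DOX. It was thus lower with DOX in both lines, by 1.36 and 0.64 on the log2 scale, and further so in the miR-137 line (difference -0.72, SE 0.14). On the authors' TPM scale this difference did not pass, with an adjusted p of 0.133.

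Ppargc1a encodes PGC-1α, a coactivator of genes for mitochondrial biogenesis, and its 3′ UTR of 3930 bases holds 2 8mers, at bases 2563 and 2770. It stood at 2.52, 2.79 and 2.57 CPM with 7 d DOX, against 9.87, 11.1 and 9.42 CPM with no DOX, groups that do not overlap (log2 fold change -1.95, SE 0.12, adjusted p 5.01e-16). The control line had 4.86, 5.04 and 4.93 CPM with 7 d DOX and 10.7, 11.8 and 12.4 CPM with no DOX, a smaller fall (difference -0.72, SE 0.17, adjusted p 0.00390). After withdrawal the miR-137 line still had 2.98, 2.87 and 3.71 CPM.

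In other genes the control line showed little change. Lpp, which encodes a focal adhesion protein, stood at 81.6, 82.5 and 89.6 CPM with 7 d DOX and 125, 119 and 135 CPM with no DOX (log2 fold change -0.58, SE 0.05), while the control line had 109, 115 and 128 CPM with 7 d DOX and 119.8, 118 and 115 CPM with no DOX. Robo2, an axon guidance receptor gene also active in islets, stood at 76.4, 82.3 and 82.8 CPM with 7 d DOX and 117, 120.1 and 112 CPM with no DOX (log2 fold change -0.53, SE 0.04), against a control line response of 0.00. Both genes were lower in all 3 libraries of the miR-137 line and their differences from the control line were -0.57, SE 0.07 and -0.53, SE 0.05. Hhip, which encodes a binder of hedgehog ligands, fell by 0.81 (SE 0.09), to 5.92, 6.37 and 6.62 CPM, against 10.9, 10.7 and 11.6 CPM with no DOX.

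Pgm2, an enzyme gene of pentose and hexose phosphate conversion, and Baz1a, a subunit gene of ISWI chromatin remodelling complexes, fell with 7 d DOX, and their libraries after withdrawal overlapped those with no DOX. Along the course, Pgm2 stood at 19.97, 19.5 and 20.3 CPM with no DOX, 13.2, 14.8 and 13.99 CPM after 7 d DOX and 22.5, 20.7 and 19.7 CPM after withdrawal. Baz1a stood at 35.7, 37.2 and 38.2 CPM with no DOX, 28.8, 28.97 and 28.4 CPM after 7 d DOX and 38.2, 36.3 and 35.7 CPM after withdrawal. In the control line the responses were 0.14, SE 0.07 and 0.16, SE 0.05 on the log2 scale. Hhip and Slc1a2 did not overlap their no DOX libraries after withdrawal, when they stood at 6.22, 6.602 and 6.21 CPM and 7.17, 6.56 and 7.05 CPM. Tnfrsf23, a TNF receptor family gene, stood at 5.97, 6.42 and 6.28 CPM with 7 d DOX and 12.2, 10.7 and 10.8 CPM with no DOX, with a difference from the control line of -0.50, SE 0.14, adjusted p 0.0145 that was lost without no DOX replicate 2 or 7 d DOX replicate 3 of the control line, or without no DOX replicate 1 of the miR-137 line (adjusted p 0.0556, 0.0525 and 0.0508).

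An 8mer did not mark every gene as lower. Dclk1, a microtubule-associated kinase gene, stood at 24.5, 22.8 and 21.6 CPM with 7 d DOX, against 8.83, 9.42 and 9.14 CPM with no DOX (log2 fold change 1.33, SE 0.07; difference from the control line 0.84, SE 0.12). Cbarp, which encodes a regulator of voltage-gated calcium channels, stood at 64.7, 69.5 and 67.1 CPM with 7 d DOX and 36.02, 36.1 and 32.8 CPM with no DOX (difference 0.68, SE 0.09). Mapk10, the neuronal JNK3 kinase gene with 2 8mers, rose by 0.89 and Fxyd6, a sodium pump regulator gene, by 0.38 on the log2 scale. The TPM scale gave an adjusted p of 0.162 for the difference of Mapk10.

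**Figure D3:**
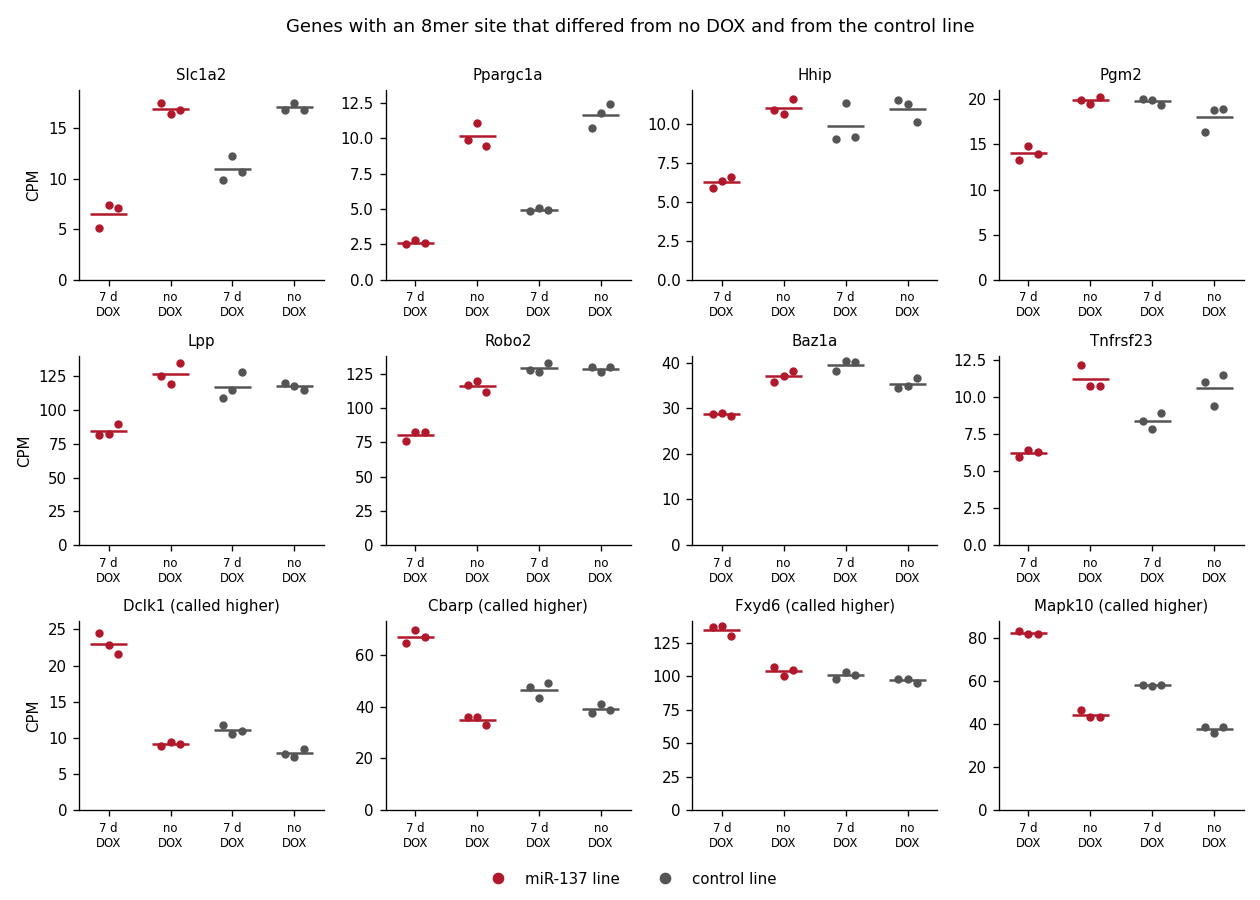
CPM of 12 genes with an 8mer in each library (points) with group means (lines); in each panel, from left, miR-137 line 7 d DOX and no DOX (red), control line 7 d DOX and no DOX (grey). Robo2 has 76.4 to 82.8 CPM in the first group and 112 CPM or more in all others, and the last 4 panels show the genes called higher.

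A list of 33 genes reported as miR-137 targets, written from general knowledge, had 28 members tested, of which 25 had a site and 12 an 8mer. Of the 28, 16 were lower (57.1%) and 2 higher (7.14%), with a median of -0.235. Over all genes 21.8% were lower and 21.0% higher, and the median was -0.000276. The control line had 8 lower (28.6%, against 19.3% over all genes) and 6 higher (21.4%, against 18.5%) and a median of -0.025. Against the control line, 8 responses were lower (28.6%, against 4.78% over all genes) and 1 higher (3.57%, against 5.90%). Akt2, an insulin signalling kinase gene with an 8mer, stood at 105, 108 and 108 CPM with 7 d DOX and 141, 144 and 140.5 CPM with no DOX (log2 fold change -0.41, SE 0.03), with 142, 143 and 139.6 CPM and 151, 149.9 and 145 CPM in the control line with 7 d DOX and with no DOX. Cdc42, a small GTPase gene with a 7mer-A1, stood at 486, 479 and 469 CPM with 7 d DOX and 579.9, 552 and 564 CPM with no DOX (difference from control -0.30, SE 0.04, adjusted p 2.92e-06).

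Further targets moved the same way. Esrrg, a nuclear receptor gene that partners PGC-1α, fell by 0.90 (difference -0.38, SE 0.06), and Rora, a clock-linked nuclear receptor gene with an 8mer, fell by 0.65 (difference -0.39, SE 0.08, adjusted p 0.365 on the TPM scale). The splicing repressor gene Ptbp1 fell by 0.24 and the nuclear export gene Cse1l by 0.15, each with a called difference. Mitf, whose product drives pigment cell fate and which is a long-studied miR-137 target, was scarce, at 3.396, 2.56 and 2.57 CPM with 7 d DOX and 4.85, 4.82 and 5.41 CPM with no DOX. It fell by 0.82 (SE 0.14), while its difference from the control line was -0.56, SE 0.20, adjusted p 0.0621. That difference passed on the TPM scale (-0.68, adjusted p 0.0244), and by the count test without 7 d DOX replicate 1 of the miR-137 line (-0.70, adjusted p 0.0305) or without 7 d DOX replicate 2 of the control line (-0.67, adjusted p 0.0258). Fmnl2, a formin gene with a 7mer-m8, and Jarid2, a Polycomb cofactor gene with no site, were the 2 members that rose, by 0.38 and 0.42, and Fmnl2 was the 1 higher response (difference 0.25, SE 0.06).

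Beside Gm26871, described above, genes with the largest changes in the miR-137 line were named by a rule that took called genes with at least 5 CPM in the higher group and no overlap of libraries, and left out clones, pseudogenes and predicted genes, Gm26871 among them. The log2 fold changes of the genes it named had the same sign in the control line. Pdyn, the precursor of dynorphin opioid peptides, stood at 68.9, 75.5 and 74.1 CPM with 7 d DOX, against 18.04, 16.7 and 14.4 CPM with no DOX (log2 fold change 2.15, SE 0.09), with 83.4, 73.6 and 69.8 CPM in the control line with 7 d DOX and 21.9, 18.9 and 18.2 CPM with no DOX. Gcg, the glucagon precursor, stood at 55.6, 63.05 and 56.03 CPM with 7 d DOX and 16.7, 15.2 and 15.6 CPM with no DOX, and its rise of 1.89, SE 0.08 exceeded that of the control line by 0.51, SE 0.12, adjusted p 0.00485. Log2 fold changes were 2.04 for Pdzk1, a scaffold of apical transporters, 1.91 for Gpr179, an orphan receptor gene, 1.81 for Pde7b, a cyclic AMP phosphodiesterase gene, and 1.70 for Pipox, a peroxisomal oxidase gene.

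The other genes that rose, with log2 fold changes in brackets, were the corepressor gene Hr (1.63), the secreted peptide gene Fam19a1 (1.55), the microtubule regulator gene Stmn4 (1.49), the ciliary transcription factor gene Foxj1 (1.46), the neuronal endosome gene Nsg2 (1.44) and the transferrin family gene Meltf (1.43). Of the 12, 7 also differed from the control line in the same direction, namely Gcg, Stmn4, Pdzk1, Gpr179, Pipox, Hr and Foxj1. For 5 of these the call of the difference was lost in some of the 12 fits that each left out 1 library. Gpr179 lost it without no DOX replicate 1 of the control line (0.47, adjusted p 0.343) or no DOX replicate 2 of the miR-137 line (adjusted p 0.0581). Hr lost it without no DOX replicate 2 of the control line, or no DOX replicate 3 or 7 d DOX replicate 2 of the miR-137 line (adjusted p 0.0530, 0.0608 and 0.0543). Foxj1 lost it without no DOX replicate 3 of the control line, or no DOX replicate 1 or 7 d DOX replicate 2 of the miR-137 line (adjusted p 0.0551, 0.0572 and 0.0613). DESeq2 gave an adjusted p of 0.0553 for the difference of Hr and 0.0545 for that of Pipox, and the TPM scale 0.109 for that of Pdzk1. Pdzk1 lost it in 6 fits, without no DOX replicates 1 or 2 or 7 d DOX replicate 2 of the control line, or no DOX replicates 2 or 3 or 7 d DOX replicate 2 of the miR-137 line, with adjusted p of 0.0614 to 0.220. Pipox lost it in 7 fits, without no DOX replicates 1 or 3 or 7 d DOX replicate 1 of the control line, or no DOX replicates 1 or 3 or 7 d DOX replicates 1 or 3 of the miR-137 line, with adjusted p of 0.0505 to 0.246.

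The genes that fell most included sterol and lipid genes. Insig1, the sterol-sensing retention protein of the SREBP system, fell by 1.70, and Scd1, a fatty acid desaturase gene, by 1.77, against falls of 1.52 and 1.52 in the control line. Their differences of -0.18 and -0.24 passed the test by a narrow margin. For Insig1 the call held in 3 of 12 fits that left out 1 library, those without 7 d DOX replicate 2 of the control line and without no DOX replicate 3 or 7 d DOX replicate 2 of the miR-137 line, and adjusted p in the other 9 was 0.0559 to 0.177. For Scd1 it was lost in 5, without no DOX replicate 3 or 7 d DOX replicate 3 of the control line, or no DOX replicate 2 or 7 d DOX replicates 1 or 3 of the miR-137 line, with adjusted p of 0.0643 to 0.142, and it was lost with DESeq2 (adjusted p 0.0894) and on the TPM scale (0.0751). Fosb, an activity-induced factor gene, is described with the genes of its kind. Blnk, a signalling adaptor gene best known in B cells, fell by 1.94, further than the control line's 1.42 (difference -0.52, SE 0.13, adjusted p 0.00707), a difference that did not pass on the TPM scale (-0.38, adjusted p 0.0635). The mitochondrial protein gene Chchd10 (-1.81), the sugar enzyme genes Uap1l1 (-1.69) and Renbp (-1.66), the methyltransferase-like gene Comtd1 (-1.66), the reelin adaptor gene Dab1 (-1.64) and the amino acid sensing GTPase gene Rragd (-1.59) also fell (log2 fold changes in brackets), without a called difference. Rragd holds an 8mer and had a control line response of -1.54.

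Among genes outside the clone, pseudogene and predicted gene names, 7 of the 10 that differed most from the control line in the upward direction were activity-induced transcription factor genes that fell with DOX in the control line and fell less, or not detectably, in the miR-137 line. Fos stood at 91.9, 86.3 and 81.96 CPM with 7 d DOX and 98.4, 108 and 94.3 CPM with no DOX in the miR-137 line, and at 31.1, 30.1 and 26.3 CPM with 7 d DOX and 102, 106 and 108 CPM with no DOX in the control line. Its responses were -0.21, SE 0.07 in the miR-137 line and -1.86, SE 0.08 in the control line, which gave a difference of 1.65, SE 0.11, adjusted p 2.98e-13. The call of its own response in the miR-137 line was lost without no DOX replicate 2 (-0.15, adjusted p 0.145) or without 7 d DOX replicate 3 (-0.17, adjusted p 0.0956), and DESeq2 gave an adjusted p of 0.132. Junb stood at 86.5, 78.3 and 72.6 CPM with 7 d DOX, against 86.00, 90.5 and 67.3 CPM with no DOX, overlapping groups with a response of -0.04, SE 0.08, adjusted p 0.702, while the control line's response was -1.25, SE 0.08. Ier2 had 64.4, 61.7 and 56.6 CPM with 7 d DOX and 64.8, 64.8 and 52.4 CPM with no DOX, also overlapping, and a difference of 1.15, SE 0.10.

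Fosb fell in both lines, to 16.7, 17.9 and 17.5 CPM with 7 d DOX, against 50.1, 58.1 and 51.4 CPM with no DOX, in the miR-137 line, and to 7.06, 7.42 and 7.16 CPM, against 60.9, 69.2 and 56.8 CPM, in the control line (difference 1.49, SE 0.15). Egr2, Nr4a1 and Npas4, further activity-induced factors, fell by 1.01, 0.73 and 1.13 in the miR-137 line and by 2.58, 2.12 and 2.23 in the control line. Of 35 immediate early and activity genes tested, 14 were lower (40.0%) and 6 higher (17.1%) in the miR-137 line, with a median of -0.10. Over all genes 21.8% were lower and 21.0% higher there. The control line had 22 lower (62.9%, against 19.3% over all genes) and 1 higher (2.86%, against 18.5%), with a median of -0.44. The first median was -0.154 without no DOX replicate 3 and -0.035 on the TPM scale. Against the control line 14 responses were higher (40.0%, against 5.90% over all genes). Among them were those of Egr1 (0.84, SE 0.10), Jun (0.63, SE 0.06), Dusp1 (1.03, SE 0.07) and Btg2 (1.05, SE 0.08). Only 2 were lower (5.71%, near the 4.78% over all genes). They were those of Dusp5 (-0.47, SE 0.10), a MAP kinase phosphatase gene, and Klf10 (-0.27, SE 0.07), a zinc finger factor gene. Crem, a cyclic AMP responsive factor gene, rose by 0.98 in the miR-137 line and 0.74 in the control line.

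The other genes with a higher response were of different kinds. Fxyd2, the gamma subunit of the sodium pump, stood at 21.6, 19.6 and 17.5 CPM with 7 d DOX and 25.6, 25.3 and 28.3 CPM with no DOX in the miR-137 line, and at 3.66, 3.33 and 2.79 CPM with 7 d DOX and 12.4, 12.9 and 15.1 CPM with no DOX in the control line (difference 1.62, SE 0.15). Ddit4l, an mTOR inhibitor gene, had overlapping groups in the miR-137 line at 10.6, 8.84 and 9.14 CPM with 7 d DOX and 11.4, 9.56 and 9.47 CPM with no DOX, and fell by 1.40 in the control line. Casr, the calcium-sensing receptor gene, stood at 9.98, 10.3 and 11.2 CPM with 7 d DOX and 5.02, 5.64 and 5.24 CPM with no DOX, and at 5.11, 4.94 and 5.89 CPM with 7 d DOX and 5.64, 5.24 and 7.67 CPM with no DOX in the control line (difference 1.204, SE 0.16, adjusted p 1.34e-06). After withdrawal Casr stood at 5.32, 5.66 and 5.005 CPM in the miR-137 line.

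Differences in the downward direction came partly from the control line. Mgl2, a lectin gene, had 1.34, 1.44 and 0.914 CPM with 7 d DOX and 1.21, 1.14 and 0.669 CPM with no DOX in the miR-137 line, overlapping groups, while the control line had 7.41, 8.27 and 7.72 CPM with 7 d DOX and 1.098, 1.58 and 1.16 CPM with no DOX. Piezo1, a mechanosensitive channel gene, likewise overlapped in the miR-137 line (0.14, SE 0.16) and rose by 0.89 in the control line, and its difference of -0.75 was lost without no DOX replicate 2 of the control line, or without no DOX replicates 1 or 3 or 7 d DOX replicate 2 of the miR-137 line (adjusted p 0.0663, 0.0576, 0.0524 and 0.0844). On the TPM scale it was -0.26 with an adjusted p of 0.478. Plk2, a polo-like kinase gene, rose in both lines, by 0.39 and 1.13.

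Vipr1, a receptor gene for vasoactive intestinal peptide, fell in the miR-137 line and not detectably in the control line. It stood at 9.98, 11.2 and 10.3 CPM with 7 d DOX and 18.6, 17.5 and 16.6 CPM with no DOX, and at 19.6, 21.4 and 20.1 CPM with 7 d DOX and 19.4, 20.1 and 18.1 CPM with no DOX in the control line (difference -0.83, SE 0.10, adjusted p 1.53e-07). After withdrawal it stood at 17.2, 18.1 and 19.4 CPM in the miR-137 line. Its best site is a 7mer-m8. Oas2, an antiviral enzyme gene, stood at 2.11, 3.02 and 2.86 CPM with 7 d DOX and 4.303, 6.05 and 5.79 CPM with no DOX (difference -1.03, SE 0.20, adjusted p 3.94e-04). Trim66, a tripartite motif family gene, was lower with 7 d DOX in the miR-137 line (-0.39) and higher in the control line (0.43). The phosphatase regulator gene Ppp1r16b (-0.87), the ephrin receptor gene Epha8 (-0.62), the homeobox gene Barx2 (-1.13) and the galectin-like gene Lgalsl (-0.72) fell in the miR-137 line, with control line responses of 0.35, 0.18, -0.37 and 0.02. The difference of Lgalsl did not pass on the TPM scale (-0.53, adjusted p 0.0582).

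**Figure D4:**
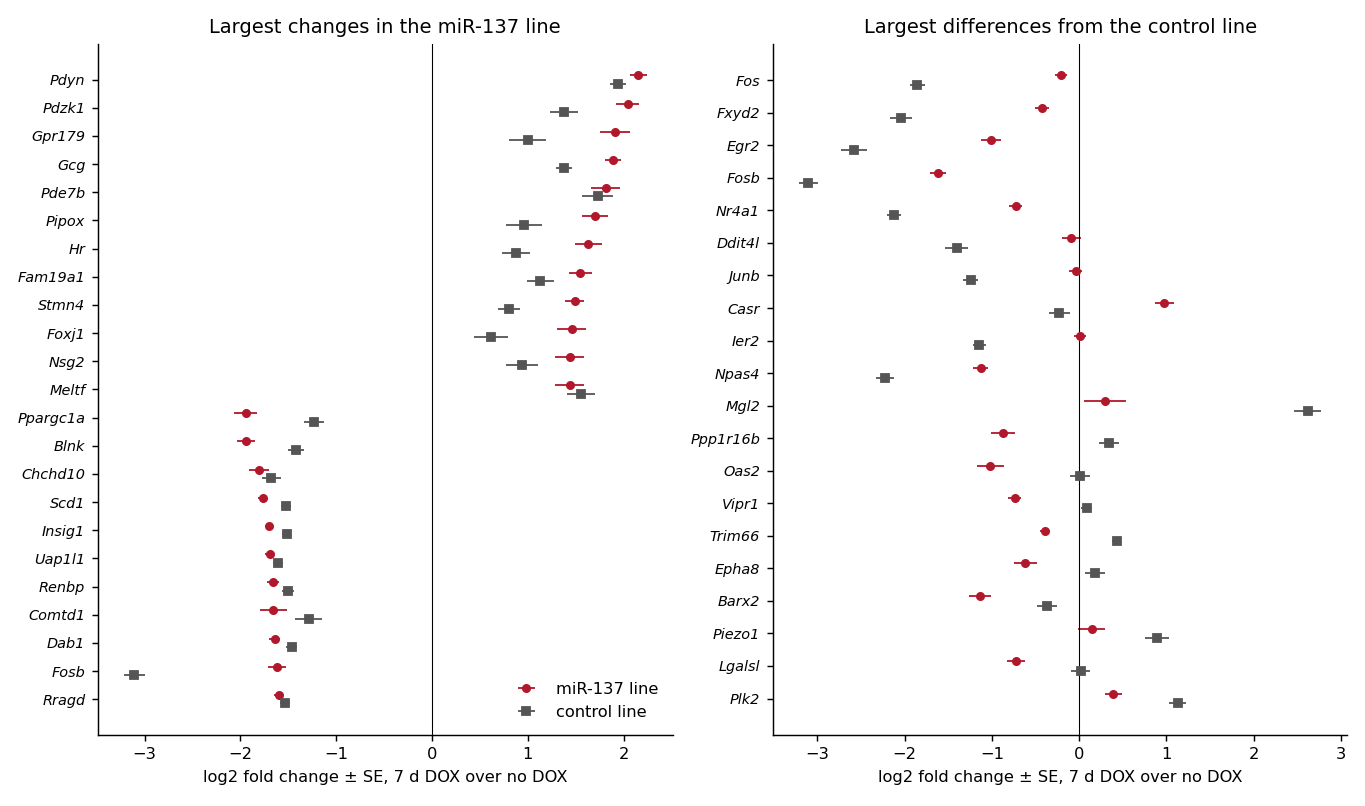
Log2 fold change with its SE, 7 d DOX over no DOX, in the miR-137 line (red circles) and the control line (grey squares) for genes with the largest changes in the miR-137 line (left) and the 20 with the largest difference between the lines (right). The genes met a minimum of 5 CPM, and predicted genes such as Gm26871 are left out. On the left both lines lie on the same side of 0 for each gene; on the right Fos has -0.21 in the miR-137 line and -1.86 in the control line.

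The gene lists that follow are described beside the shares over all genes tested, which were 21.0% higher and 21.8% lower in the miR-137 line, 18.5% higher and 19.3% lower in the control line, and 5.90% higher and 4.78% lower for the difference between their responses.

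Most genes of lipid synthesis fell in both lines. Of 26 sterol synthesis and uptake genes, which SREBP2 activates when sterols are scarce, 24 were lower and 0 higher in the miR-137 line, with a median of -0.78, and 24 lower and 0 higher in the control line, with a median of -0.66. Msmo1, a sterol demethylation enzyme gene, stood at 73.7, 75.8 and 71.9 CPM with 7 d DOX and 193, 189 and 178 CPM with no DOX (log2 fold change -1.34, SE 0.04), and its fall exceeded that of the control line (difference -0.25, SE 0.06, adjusted p 0.00660). Against the control line 7 sterol genes were lower and 1 higher. Of 19 fatty acid genes 16 were lower and 2 higher, with a median of -0.46, against -0.43 in the control line. Acly, whose product makes cytosolic acetyl-CoA, was 1 of the 2 that rose (0.20), and 1 gene rose in each fit that left out 1 library of the miR-137 line except the one without no DOX replicate 3.

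Most secretory granule genes rose. Of 21 insulin, granin and prohormone processing genes 14 were higher and 2 lower, with a median of 0.28, against 12 higher, 3 lower and a median of 0.12 in the control line, and 7 responses were higher than in the control line with 0 lower. Vgf, a granin-like peptide precursor gene, stood at 131, 134 and 131 CPM with 7 d DOX and 79.8, 85.1 and 74.5 CPM with no DOX, against 87.05, 85.2 and 81.5 CPM with 7 d DOX and 86.9, 83.7 and 86.7 CPM with no DOX in the control line (difference 0.75, SE 0.07, adjusted p 7.11e-10). Ptprn, a granule membrane protein gene, stood at 1185, 1246 and 1224 CPM with 7 d DOX and 729, 698 and 735 CPM with no DOX (difference 0.40, SE 0.05). The peptide amidating enzyme gene Pam rose by 0.71 (difference 0.45, SE 0.05) and chromogranin B (Chgb) by 0.89 (difference 0.25, SE 0.05). Ins1 and Ins2 rose by 0.31 and 0.24 and the carboxypeptidase gene Cpe by 0.58, without a called difference. Iapp, the amylin gene, stood at 2128, 2064 and 2049 CPM with 7 d DOX and 3070, 3148 and 3057 CPM with no DOX, a fall of 0.57 beside 0.48 in the control line. Reads that align to more than 1 place were not counted, so values of the similar genes Ins1 and Ins2 are less certain.

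Of 11 other islet and gut hormone genes tested 10 were higher and 0 lower, with a median of 1.301, against 8 higher, 0 lower and a median of 0.71 in the control line. On the TPM scale, where the 1 added to each value shrinks changes of low genes, the median was 0.462. Against the control line 2 responses were higher, those of Gip and Gcg, and 2 lower, those of Sct, the secretin gene (-0.38, SE 0.12), and Gal, the galanin gene (-0.37, SE 0.11). The calls of Sct and Gal were each lost in 8 of 12 fits that left out 1 library. For Sct these were the fits without no DOX replicates 2 or 3 or 7 d DOX replicate 2 of the control line, or without no DOX replicates 1, 2 or 3 or 7 d DOX replicates 1 or 3 of the miR-137 line (adjusted p 0.0518 to 0.145). For Gal they were those without no DOX replicates 1, 2 or 3 or 7 d DOX replicates 2 or 3 of the control line, or without no DOX replicate 1 or 7 d DOX replicates 1 or 2 of the miR-137 line (adjusted p 0.0504 to 0.131), and DESeq2 gave 0.110. Gip, the incretin gene, stood at 33.1, 31.1 and 31.5 CPM with 7 d DOX and 16.1, 13.4 and 15.3 CPM with no DOX (difference 0.59, SE 0.10), and Cck, the cholecystokinin gene, at 37.6, 40.97 and 39.6 CPM with 7 d DOX and 18.7, 15.5 and 13.8 CPM with no DOX, with a rise near that of the control line (1.301 and 1.12).

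Of 38 synaptic vesicle and exocytosis genes 15 were higher (39.5%) and 11 lower (28.9%) in the miR-137 line, against 21.0% and 21.8% over all genes, and 11 were higher and 12 lower in the control line. In the difference from the control line 12 responses were higher (31.6%, against 5.90% over all genes) and 5 lower (13.2%, against 4.78%). Rab3a, a vesicle GTPase gene, stood at 133, 134 and 131 CPM with 7 d DOX and 103, 103 and 93.7 CPM with no DOX, against 94.6, 97.1 and 90.6 CPM with 7 d DOX and 98.3, 99.6 and 98.6 CPM with no DOX in the control line (difference 0.48, SE 0.06, adjusted p 1.57e-07). Its relative Rab3b and the vesicle phosphoprotein gene Syn1 had differences of 0.58, SE 0.11 and 0.36, SE 0.07. Sytl4, the granuphilin gene that docks insulin granules, went the other way, at 284, 291 and 295 CPM with 7 d DOX and 448, 460.1 and 469 CPM with no DOX (difference -0.39, SE 0.05).

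Of 28 beta cell transcription factor genes 7 were higher (25%) and 9 lower (32.1%), against 21.0% and 21.8% over all genes, and 3 were higher on the TPM scale. In the difference from the control line 2 were higher (7.14%) and 3 lower (10.7%), against 5.90% and 4.78% over all genes. Hnf4a, a regulator of beta cell metabolism, stood at 129, 133 and 125 CPM with 7 d DOX and 86.99, 85.4 and 84.5 CPM with no DOX (difference 0.38, SE 0.06, adjusted p 0.0953 on the TPM scale), and Sox4 rose by 0.55 (difference 0.52, SE 0.08). The 3 lower responses were those of Pdx1, a master regulator of beta cell identity (-0.18, SE 0.05), Pax4, an islet development factor gene (-0.37, SE 0.10), and Hes1, a NOTCH effector gene (-0.88, SE 0.22). The call of Pdx1 was lost without no DOX replicate 3 or 7 d DOX replicate 1 of the control line, or without no DOX replicate 2 of the miR-137 line (adjusted p 0.0574, 0.0588 and 0.0533), that of Pax4 without 7 d DOX replicate 3 of the control line (0.0504), and that of Hes1 on the TPM scale (0.288). Of 30 channel, receptor and glucose sensing genes 8 were higher (26.7%) and 13 lower (43.3%), with 4 responses higher and 7 lower than in the control line. Slc2a2 stood at 8.18, 7.67 and 7.82 CPM with 7 d DOX and 10.4, 10.6 and 9.81 CPM with no DOX (difference -0.59, SE 0.14), and G6pc2, the islet glucose-6-phosphatase gene, fell by 0.65, beside 0.46 in the control line (difference -0.19, SE 0.05). The fatty acid receptor gene Ffar1, with an 8mer, fell by 0.25 (difference -0.24, SE 0.04), and the incretin receptor gene Gipr rose by 0.33, beside 0.29 in the control line.

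Of 27 PGC-1 and mitochondrial biogenesis genes 12 were lower (44.4%) and 2 higher (7.41%), with a median of -0.11, against 8 lower and 4 higher in the control line. Beside Ppargc1a, the nuclear receptor gene Esrra, with an 8mer, fell by 0.57 and 0.50 in the 2 lines, the scarce coactivator gene Ppargc1b by 0.90 in the miR-137 line, and the mitochondrial DNA factor gene Tfam by 0.17. Of 74 nuclear encoded respiratory chain genes 16 were lower (21.6%) and 8 higher (10.8%), against 21.8% and 21.0% over all genes, so the share lower was near that over all genes. The control line had 30 lower and 2 higher. Of 13 mitochondrially encoded messenger RNAs only 7 could be tested, and 5 had 0 counts in all 6 libraries, for a reason that was not tested. Of the 7, 3 were lower and 0 higher, with 1 higher without 7 d DOX replicate 3 or without a filter on low counts. The control line had 5 lower and 0 higher. Of 36 glycolysis and hypoxia-inducible genes 16 were lower (44.4%) and 4 higher (11.1%), against 21 lower and 3 higher in the control line. In the difference from the control line 5 responses were higher and 1 lower. Aldoc, an aldolase gene, stood at 50.1, 47.5 and 46.03 CPM with 7 d DOX and 65.1, 68.7 and 63.2 CPM with no DOX (difference 0.48, SE 0.08). Slc16a1, a lactate and pyruvate transporter gene with a 7mer-A1, was the 1 lower response (-0.46, SE 0.10), and Pfkfb3, a glycolysis activator gene, rose by 1.36, beside 1.08 in the control line.

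Of 42 mitosis and G2/M genes 14 were higher (33.3%) and 10 lower (23.8%) in the miR-137 line, with a median of 0.03, against 26 higher, 2 lower and a median of 0.15 in the control line, and 10 responses were lower than in the control line (23.8%, against 4.78% over all genes) with 0 higher (5.90% over all genes). The 10 lower than with no DOX became 4 without no DOX replicate 3 or without 7 d DOX replicate 3 of the miR-137 line, and 5 without its 7 d DOX replicate 2. Of 42 G1/S and DNA replication genes 11 were higher and 11 lower (26.2% each, against 21.0% and 21.8% over all genes), while the control line had 23 higher and 6 lower, and 7 responses were lower (16.7%) and 1 higher (2.38%). Mki67, the Ki-67 proliferation marker gene, stood at 2641, 2619 and 2591 CPM with 7 d DOX and 2687, 2649 and 2712 CPM with no DOX, and at 2886, 2878 and 2958 CPM with 7 d DOX and 2703, 2582 and 2674 CPM with no DOX in the control line (difference -0.17, SE 0.04, adjusted p 0.00741). Pola1, a DNA polymerase subunit gene, fell by 0.19 (difference -0.27, SE 0.05), and Rrm2, a ribonucleotide reductase gene, rose by 0.45, beside 0.49 in the control line. Cdkn1a, the p21 cell cycle inhibitor gene, stood at 148, 143 and 147 CPM with 7 d DOX and 117, 116 and 112 CPM with no DOX (difference 0.31, SE 0.05, adjusted p 2.99e-05). Of 27 p53 target and CDK inhibitor genes 10 were higher (37%) and 9 lower (33.3%), against 6 higher and 9 lower in the control line.

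Stress and supply genes mostly followed the control line. Of 40 ATF4 and amino acid supply genes 30 were lower and 5 higher, with a median of -0.26, against 29 lower, 2 higher and -0.28 in the control line. The 5 higher became 2 without no DOX replicate 3 or without 7 d DOX replicate 2 of the miR-137 line and 3 without its no DOX replicate 1. Atf4, the regulator itself, fell by 0.33 and the asparagine synthetase gene Asns by 0.22, without a called difference. The difference of Atf4 (0.12, SE 0.05, adjusted p 0.0835) passed without 7 d DOX replicate 1 of the control line (0.16, adjusted p 0.0144) or without 7 d DOX replicate 3 of the miR-137 line (0.15, adjusted p 0.0332). Slc7a11, a cystine transporter gene, stood at 6.43, 5.999 and 6.396 CPM with 7 d DOX and 11.5, 11.9 and 12.7 CPM with no DOX (difference -0.57, SE 0.12), and the pseudokinase gene Trib3 had a difference of -0.59, SE 0.10; neither difference passed on the TPM scale (adjusted p 0.506 and 0.0824). Of 28 ER chaperone and unfolded protein response genes 17 were higher (60.7%) and 6 lower (21.4%, near the 21.8% over all genes), with a median of 0.12, beside 17 higher, 2 lower and 0.19 in the control line. The 6 lower became 3 without no DOX replicate 1 of the miR-137 line. Hspa5, the BiP chaperone gene, rose by 0.18.

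Shares over all genes for the lists below were again 21.0% higher and 21.8% lower. Of 18 circadian clock genes 9 were lower and 1 higher, with 5 responses lower and 1 higher than in the control line. Hlf, a clock output factor gene with an 8mer, stood at 14.8, 14.5 and 14.6 CPM with 7 d DOX and 22.01, 22.4 and 24.4 CPM with no DOX (difference -0.49, SE 0.09), and Bhlhe40, a clock repressor gene, fell by 0.72, beside 0.71 in the control line. Of 35 interferon response and MHC class I genes 14 were lower (40.0%) and 6 higher (17.1%), against 8 lower and 6 higher in the control line. Among the lower ones was B2m, the MHC class I light chain gene with an 8mer, which fell by 0.62, beside 0.60 in the control line. Of 26 glutathione and NRF2 antioxidant genes 11 were lower (42.3%) and 4 higher (15.4%), against 14 lower and 1 higher in the control line. In the difference from the control line 5 were higher (19.2%, against 5.90% over all genes) and 2 lower (7.69%, against 4.78%). Of 29 TGF-beta, activin and BMP genes 9 were higher (31.0%) and 4 lower (13.8%), of 12 mesenchymal transition genes 3 were higher and 3 lower (25% each, near the shares over all genes), and of 9 epithelial adhesion genes 1 was higher and 1 lower (11.1% each), or 2 lower without no DOX replicate 2. In the control line 13 TGF-beta, activin and BMP genes were higher and 5 lower, and 5 mesenchymal genes were higher and 1 lower. There 1 epithelial gene was higher and 1 lower. Of 31 NOTCH pathway genes 8 were higher (25.8%) and 5 lower (16.1%), with 5 higher without no DOX replicate 2 or 3 and 3 on the TPM scale. Of 27 histone methylation enzyme genes 9 were higher (33.3%), or 4 without no DOX replicate 1 and 3 on the TPM scale, and 4 lower (14.8%), or 2 without no DOX replicate 3 or 7 d DOX replicate 1 or 2. Of 20 heat shock chaperone genes 3 were higher (15%), or 1 without 7 d DOX replicate 2, and 5 lower (25%). In the control line 5 NOTCH genes were higher and 3 lower, and 7 histone methylation genes were higher and 2 lower. There 4 heat shock genes were higher and 5 lower. Of 21 microRNA processing and silencing genes 7 were lower (33.3%) and 3 higher (14.3%); the 7 became 4 without no DOX replicate 3 or 7 d DOX replicate 1 of the miR-137 line and 3 without its 7 d DOX replicate 2.

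**Figure D5:**
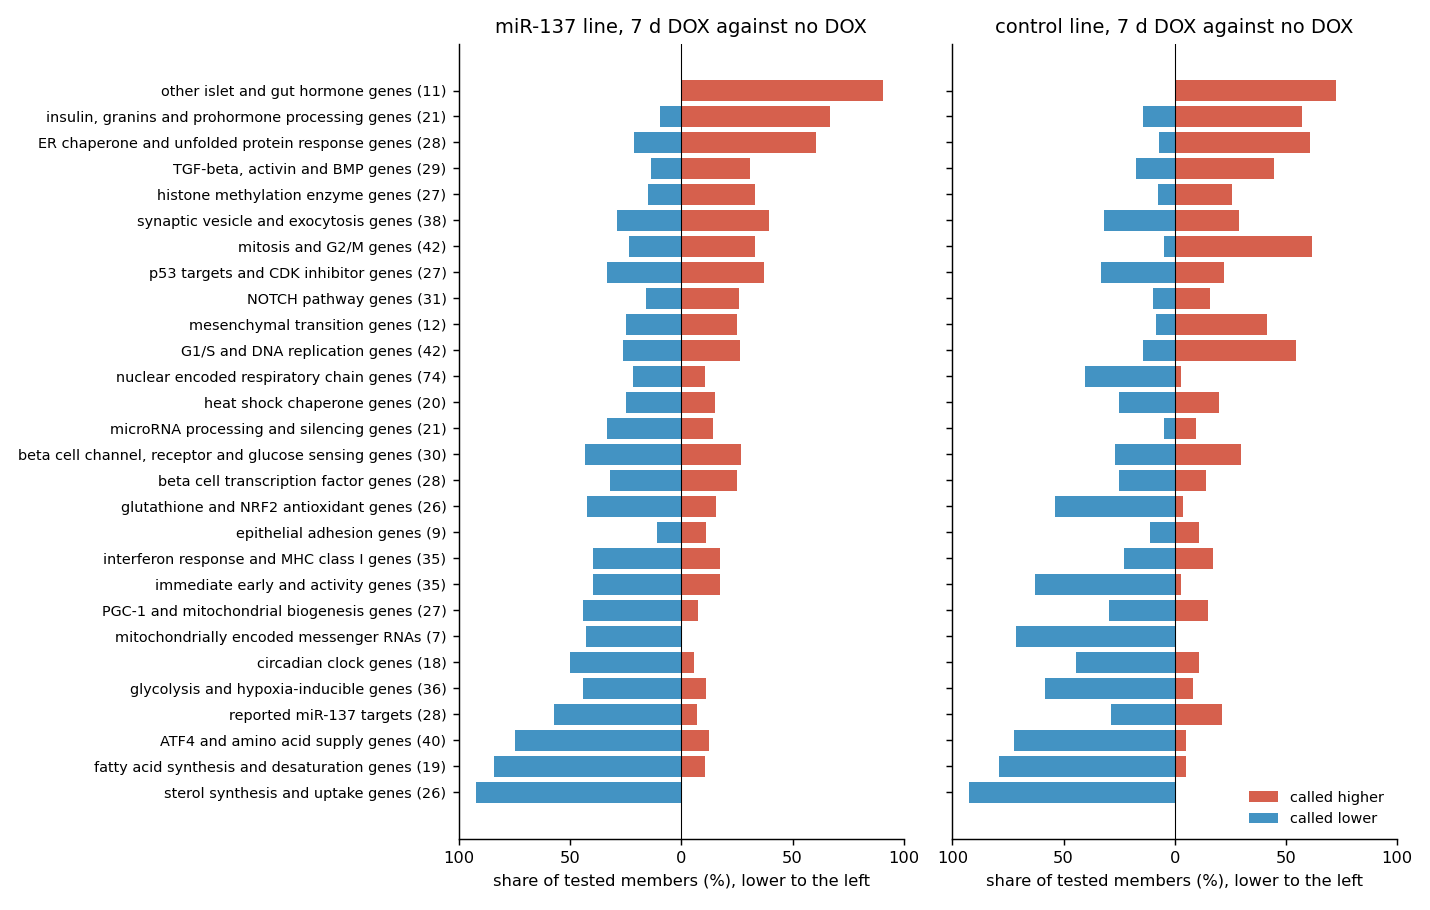
Share of the tested members of each gene list (number in brackets) called higher (right, red) or lower (left, blue) with 7 d DOX against no DOX in the miR-137 line (left panel) and the control line (right panel). The sterol list has 24 of 26 members lower in both lines, and mitosis and G2/M genes have 14 of 42 higher in the miR-137 line and 26 of 42 in the control line.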

How the data were processed

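PolyA RNA of 24 libraries was sequenced from a stranded kit, per the labels' protocols. The authors' deposited counts are whole reads per gene, and the authors' deposited TPM table gives length-scaled values. The submitters' processing notes name STAR 2.4.0g, HTSeq 0.6.1, featureCounts, cutadapt 1.3 and RSEM 1.2.19, and the builds GRCm38 and mm10. Nothing read here states the strand setting of the counting, so antisense and overlapping genes are uncertain. Closing lines that name no gene were left out. Relative to the gene counts and these lines together, reads in no gene made up 9.93% to 11.3%, reads with several alignments 26.5% to 27.2% and ambiguous reads 0.749% to 0.779% in the 6 libraries.

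Counts were fitted with edgeR 4.0.16 (R 4.3.3; TMM factors, filterByExpr, 1 mean per group over all 24 libraries, quasi-likelihood F test, Benjamini-Hochberg adjustment over 14866 genes, threshold 0.05). Each SE was taken as |log2 fold change| over √F. The response of the miR-137 line was tested alone and as a difference from those of the control and miR-23b lines. Alternatives used DESeq2 1.42.0, limma 3.58.1 on log2(TPM + 1), other scaling and filters, a replicate block, and each replicate left out. The fit was tested on simulated data. Of 46517 gene entries, 46005 had a symbol in GENCODE M21. Replicates differed by more than sampling noise, so each counted once.

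Genes were named by rule: 12 per direction by fold change in the miR-137 line, 10 per direction by difference from the control line, and 8 lower and 4 higher genes with an 8mer in both comparisons, each called and with at least 5 CPM in the highest group. The libraries did not overlap between 7 d DOX and no DOX for the first, nor the deviations of 7 d DOX libraries from their line's no DOX mean between the lines for the others. Clones, pseudogenes and predicted genes, Gm26871 among them, were left out of the rule. A gene that met the rule is not reported here. Members of the gene lists could be named whatever their values. The samples, lists and rules were chosen with earlier results of these data known. The 6 libraries held 17470614 to 22301042 counts. Intervals and tests cover these libraries only.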

Additional observations from a re-analysis of the deposited data

Results flagged for a closer look

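The difference between the DOX response of the miR-137 line and that of the control line passed edgeR's interaction test in 1588 genes, and the difference from the miR-23b line's response in 5240. For the genes below the response differed between the miR-137 and control lines by the same test, which is what sets them apart here. The report gives the levels of some of them and the libraries on which some calls rest.

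The activity-induced genes included higher responses, with log2 differences of 1.65 for Fos, 1.57 for Egr2, 1.49 for Fosb, 1.40 for Nr4a1, 1.204 for Junb, 1.15 for Ier2 and 1.10 for Npas4. Smaller differences in that direction were 1.05 for Btg2, 1.03 for Dusp1, 0.84 for Egr1 and 0.63 for Jun. On the lower side of this group the values were -0.47 for Dusp5 and -0.27 for Klf10.

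The genes named for an 8mer included higher responses, with log2 differences of 0.84 for Dclk1, 0.68 for Cbarp, 0.32 for Fxyd6 and 0.27 for Mapk10. Lower responses here were -0.72 for Slc1a2, -0.72 for Ppargc1a, -0.66 for Hhip, -0.64 for Pgm2, -0.57 for Lpp, -0.53 for Robo2 and -0.53 for Baz1a. Smaller differences in that direction were -0.50 for Tnfrsf23.

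The reported targets included higher responses, with log2 differences of 0.25 for Fmnl2. Those with a lower response had differences of -0.39 for Rora, -0.38 for Esrrg, -0.34 for Akt2, -0.30 for Cdc42, -0.29 for Cse1l and -0.17 for Ptbp1.

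The secretory, hormone and exocytosis genes included higher responses, with log2 differences of 0.75 for Vgf, 0.59 for Gip, 0.58 for Rab3b, 0.51 for Gcg, 0.48 for Rab3a, 0.45 for Pam and 0.40 for Ptprn. Smaller differences in that direction were 0.36 for Syn1 and 0.25 for Chgb. The lower responses had log2 differences of -0.39 for Sytl4, -0.38 for Sct and -0.37 for Gal.

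The lipid and sugar metabolism genes named in the report included 1 higher response, with a log2 difference of 0.48 for Aldoc. On the lower side stood -0.59 for Slc2a2, -0.46 for Slc16a1, -0.25 for Msmo1, -0.24 for Scd1, -0.19 for G6pc2 and -0.18 for Insig1. These named genes do not stand for their lists. Of all 36 glycolysis and hypoxia-inducible genes tested 5 responses were higher and 1 lower, and of 26 sterol genes 1 was higher and 7 lower.

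Regulators, receptors and stress genes included higher responses, with log2 differences of 0.52 for Sox4, 0.38 for Hnf4a and 0.31 for Cdkn1a. Lower responses had differences of -0.88 for Hes1, -0.37 for Pax4, -0.18 for Pdx1, -0.59 for Trib3, -0.57 for Slc7a11, -0.49 for Hlf, -0.27 for Pola1, -0.24 for Ffar1 and -0.17 for Mki67.

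The other genes with the largest changes in the miR-137 line included higher responses, with log2 differences of 0.91 for Gpr179, 0.84 for Foxj1, 0.75 for Hr, 0.75 for Pipox, 0.69 for Stmn4 and 0.67 for Pdzk1. On the lower side of this group the values were -0.52 for Blnk.

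The remaining genes included higher responses, with log2 differences of 1.62 for Fxyd2, 1.32 for Ddit4l and 1.204 for Casr. Lower responses here were -2.32 for Mgl2, -1.22 for Ppp1r16b, -1.03 for Oas2, -0.83 for Vipr1, -0.82 for Trim66, -0.80 for Epha8 and -0.76 for Barx2. Smaller differences in that direction were -0.75 for Piezo1, -0.74 for Lgalsl and -0.74 for Plk2.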

How the results depend on the processing

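The counts of called genes stayed of the same order under other tools and filters, but the genes called were not all the same. On the TPM scale 5562 genes passed in the response, 1174 in the difference from the control line and 5564 in that from the miR-23b line. Of the genes called by the count test, 5051 of 6372, 897 of 1588 and 3611 of 5240 were among these, in that order. The response passed in 5613 genes with DESeq2, 5562 on the TPM scale and 6391 with DESeq2's size factors, against 6372, and leaving out each replicate gave 5566 to 5832. The difference from the control line gave 1265 to 1617 and that from the miR-23b line 4651 to 5038. A minimum of 1.5-fold left 1250, 251 and 1252 genes in these 3 comparisons, against 6372, 1588 and 5240.

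The median of 8mer genes minus that of genes with no site was -0.115. It was -0.131 with 3′ UTRs of the transcripts with the longest coding sequence and -0.103 on the TPM scale, and -0.125 to -0.112 without each replicate. For the difference from the control line it was -0.0977, with -0.08045 on the TPM scale and -0.106 to -0.0886 without each replicate.

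With a replicate block within each line 6419, 1628 and 5285 genes passed, and the site values were -0.115 and -0.0984. Same-numbered libraries of the miR-137 line had correlations of 0.0175, 0.0400 and 0.0409. These were small, but each 7 d DOX library correlated best with its own number, in the control and miR-23b lines too. Whether the numbers pair the cultures cannot be told from these values. Under the block the named gene Pipox lost the call of its difference (adjusted p 0.0511). Under every setting run, called values of named genes and both 8mer values kept their sign. The cause of the other changes was not tested. Genes of a few CPM limit the precision of single differences, and 3 libraries a group limit all tests.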
